A study of Mus musculus with 4 samples.

Results

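The genes described here are 10 components of the Notch signalling pathway in the mouse ureter: the receptors Notch1, Notch2 and Notch3, the ligands Jag1 and Jag2, the target genes Hes1, Hey1, Heyl and Nrarp, and the fringe enzyme Lfng. They were taken by name, as every probe of the array (control spots aside) whose gene name in the scanner files is one of these, which gave 12 probes of 39429. Notch1 and Notch2 had 2 probes each and the other genes had 1. All 10 genes passed the filter on dim probes, as did 18170 of the 24357 gene names on the array, and all 10 were well above background in both genotypes on each of the 4 arrays.

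The study set ureters without ΔNp63 against control ureters. ΔNp63 is the short form of the transcription factor p63, and it is the form found in basal epithelial cells. The ureters were dissected from NMRI mouse embryos at E18.5, just before birth. The mutant ureters, cKO below, carried the transgene Pax2-cre/+ and the floxed pair of alleles Trp63(dN-flox/dN-flox). The control ureters carried Trp63(dN-flox/?), in which the second allele is not specified, and no cre is listed for them. A floxed allele is thus common to both groups. Pax2-cre acts in descendants of the nephric duct, which include the epithelium of the ureter, and it is not restricted to basal cells. Each array held 1 cKO RNA and 1 control RNA in 2 colours, and sex was matched within an array: array 2 carried a male pair and the other 3 arrays female pairs. The cKO was in the red channel on arrays 1 and 3 and in the green channel on arrays 2 and 4. It is not stated whether an RNA came from 1 embryo or from a pool, so the p-values below measure the spread between these 4 arrays.

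Notch receptors are single-pass membrane proteins that are switched on by ligands of the Jagged and Delta-like families on a neighbouring cell. Ligand binding lets an ADAM protease and then the gamma-secretase complex cut the receptor, and the freed intracellular domain goes to the nucleus, where it joins the DNA-binding protein RBPJ and a Mastermind coactivator. Genes of the HES and HEY families, which encode transcriptional repressors, and Nrarp, which encodes a feedback inhibitor of the pathway, are well-known targets. Fringe enzymes such as Lfng add a sugar to the receptor that changes its response to the ligand classes. In the wall of the ureter and its vessels the pathway has members with cell type preferences: Notch3 is a receptor of smooth muscle cells and pericytes, and Jag2 and Notch1 are known from stratified epithelia.

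The array reads each gene through a short stretch of its transcript, so the probes behind the genes that changed, and behind the receptor whose probes differed, are shown first. The first 30 bases of each probe follow, 5′ to 3′ as in the scanner files, with the mm9 position of the whole probe from the same files; no part of them is set in capitals. The exon or untranslated region in which a probe lies was not determined here.
Jag1 (chr2:136907433-136907492, minus strand): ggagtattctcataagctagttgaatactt
Jag2 (chr12:114146887-114146946, minus strand): ttgtataaattattcaacggctgtcaggcg
Hes1 (chr16:30067820-30067879, plus strand): ttaaaatatcttcctttggggaagtttatt
Nrarp (chr2:25038038-25038097, plus strand): ttttttgaatcttggttatgaacccaattt
Notch1 (chr2:26319440-26319499, minus strand): tcctgcagtggagggggccttgagacaggc
Notch1 (chr2:26314630-26314689, minus strand): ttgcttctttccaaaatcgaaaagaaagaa
The remaining probes lay at chr3:97953914-97953973 and chr3:97951233-97951292 (Notch2, plus strand), chr17:32257848-32257907 (Notch3, minus strand), chr3:8663432-8663491 (Hey1, minus strand), chr4:122926975-122927034 (Heyl, plus strand) and chr5:141091224-141091283 (Lfng, plus strand).

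Jag1, Jag2 and Nrarp were lower in the cKO, and Lfng encodes an enzyme that acts on the receptors, so the 250 bases before the transcript start of these 4 genes are shown to let their sequences be compared. They are RefSeq sequences of the GRCm38.p6 assembly, a later build than that of the probe positions, and 7 of the 10 genes had an entry. Hes1, Hey1 and Heyl had none, so their sequences were not searched. Capitals mark TGGGAA, the core of the RBPJ binding motif, or its reverse complement.
Jag2 (chr12:112929496-112929745, minus strand): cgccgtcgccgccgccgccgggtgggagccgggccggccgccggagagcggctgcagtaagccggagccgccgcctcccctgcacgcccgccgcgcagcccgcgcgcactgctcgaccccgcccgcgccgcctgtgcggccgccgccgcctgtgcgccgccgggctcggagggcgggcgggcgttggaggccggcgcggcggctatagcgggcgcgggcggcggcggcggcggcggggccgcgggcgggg
Jag1 (chr2:137116521-137116770, minus strand): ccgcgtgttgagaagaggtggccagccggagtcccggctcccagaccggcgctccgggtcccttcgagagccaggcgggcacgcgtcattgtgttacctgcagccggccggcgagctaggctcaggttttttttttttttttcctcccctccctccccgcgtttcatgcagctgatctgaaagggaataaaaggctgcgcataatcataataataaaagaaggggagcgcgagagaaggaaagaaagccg
Nrarp (chr2:25180508-25180757, plus strand): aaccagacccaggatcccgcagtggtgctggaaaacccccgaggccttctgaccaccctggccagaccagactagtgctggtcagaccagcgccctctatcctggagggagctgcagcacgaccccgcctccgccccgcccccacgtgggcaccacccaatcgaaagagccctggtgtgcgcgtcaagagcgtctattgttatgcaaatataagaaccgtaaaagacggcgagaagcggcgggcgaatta
Lfng (chr5:140607091-140607340, plus strand): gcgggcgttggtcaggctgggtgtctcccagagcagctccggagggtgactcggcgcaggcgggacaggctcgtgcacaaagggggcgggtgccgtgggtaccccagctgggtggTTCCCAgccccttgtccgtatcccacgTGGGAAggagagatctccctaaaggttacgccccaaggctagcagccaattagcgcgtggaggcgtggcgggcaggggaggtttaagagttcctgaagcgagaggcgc
Searched on both strands, the RBPJ core was present in 1 of the 7 genes. That gene was Lfng, with 2 matches, 1 on the minus strand from 135 to 130 bases before the start and 1 on the plus strand from 108 to 103 bases before it. Among 32851 windows of the same length, 21.6% held the core. The p53 family decamer, the motif class to which p63 binds, was also searched on both strands and had no match in the 7 windows, so that no matches overlapped; 7.13% of all windows held it. No match says only that these letters were not in this window. The Jag2 window was the richest in G and C, at 87.2%, against 57.2% for Jag1, 61.2% for Nrarp, 66% for Lfng and a median of 52.4% over all windows.

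Spot intensities gave median signals of 460.3 to 607.3 units per channel against median backgrounds of 31 to 82. Array 1 had more spots well above background (90.0% green, 82.6% red) than the other arrays (75.0% to 76.5% and 72.4% to 72.9%). Trp63, the targeted gene, stood at -2.18 ± 0.50 on the log2 scale (limma adjusted p = 0.00207), with -2.86, -1.68, -2.03 and -2.13 on arrays 1 to 4 at the brightest of its 4 probes; the mean of the 4 probes gave -1.38 (limma adjusted p = 0.00189). Markers of the ureter were bright in both genotypes: the smooth muscle actin gene Acta2 had a mean log2 intensity of 17.29 in the control and 17.43 in the cKO, and the uroplakin gene Upk3a one of 17.08 and 16.86.

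The Jagged ligands, Nrarp and Hes1 were lower in the cKO ureters, and the receptors, Hey1, Heyl and Lfng did not pass at their brightest probes. The dimmer of the Notch1 probes was lower in the cKO (limma adjusted p over probes = 0.0372). At an adjusted p under 0.05 (limma, adjusted over all 18170 genes), 4 of the 10 genes were lower in the cKO, 0 were higher and 6 did not pass. Of all genes tested, 5.62% were lower and 2.92% were higher. The 10 genes were chosen with earlier results of these data known, so these shares are no test of the list. At an unadjusted p under 0.05 there were 4 of the 10 genes, the ones that also passed after adjustment, and 23.7% of all genes. The median log2 ratio of the 10 genes was -0.09 (the medians of arrays 1 to 4 taken alone were -0.13, -0.27, -0.14 and -0.15), beside a median of 0.00 over all genes. In whole ureters, fewer cells of a type and less RNA per cell cannot be told apart.

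**Figure D1:**
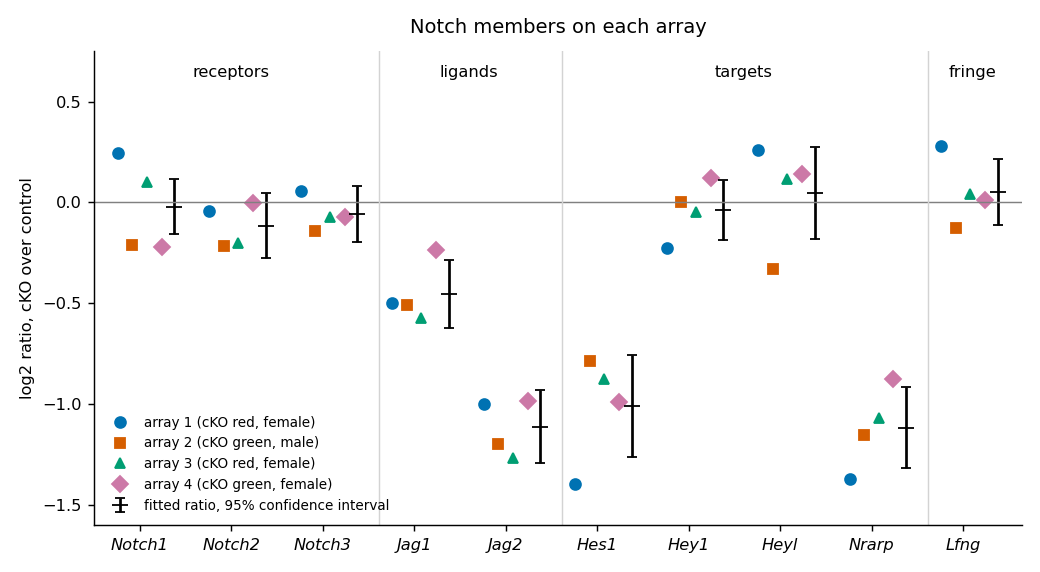
Log2 ratio of cKO over control (vertical axis) for the 10 Notch genes, grouped as receptors, ligands, targets and fringe, with 1 symbol per array and, beside it, the fitted ratio with its 95% confidence interval. All 4 symbols of Jag1, Jag2, Hes1 and Nrarp lie below 0, with Jag2 between -1.27 and -0.99. Those of Notch2, which did not pass, also lie below 0, between -0.22 and -0.0036. The symbols of Notch1, Heyl and Lfng lie on both sides of 0.

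Jag2, a ligand known for its roles in limb and palate development, was 2.16-fold lower in the cKO. Its log2 intensity was 11.45, 11.64, 11.70 and 11.71 in the controls of arrays 1 to 4 and 10.45, 10.45, 10.44 and 10.72 in the cKO. The highest cKO level was that of array 4. Whether the levels of the genotypes were apart is not used as a result for any gene here. Levels without overlap were also seen in genes that did not pass, such as Rbpj, and their share over all genes was not computed. The log2 ratio was -1.11 ± 0.14 (SD, n = 4; SE 0.0719, limma adjusted p = 0.0017), with a 95% confidence interval from -1.30 to -0.93. It was -0.999, -1.20, -1.27 and -0.99 on the 4 arrays, and 0.925% of the genes tested had a lower ratio.

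Jag1, the Jagged ligand that is also expressed in vessel walls and mesenchyme, was 1.37-fold lower. Its log2 intensity was 13.38, 13.34, 13.48 and 13.40 in the controls and 12.89, 12.83, 12.91 and 13.17 in the cKO. The cKO RNA of array 4 was nearest to the controls. The log2 ratio was -0.45 ± 0.15 (SD, n = 4; SE 0.0661, limma adjusted p = 0.0181), with a 95% confidence interval from -0.62 to -0.29. The ratios of -0.50, -0.51 and -0.57 on arrays 1 to 3 lay close together, and that of array 4 was -0.23. Leaving out array 1, 2, 3 or 4 gave a limma adjusted p of 0.0712, 0.0531, 0.0788 or 0.0292, so that the call was lost in the first 3 of these, and the p was 0.0558 with the authors' deposited value table.

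Within an array the difference between the ligands ran the same way each time. The Jag2 ratio minus the Jag1 ratio was -0.66 ± 0.11 (SD, n = 4), with -0.50, -0.69, -0.69 and -0.75 on arrays 1 to 4. Its exact two-sided sign-flip p was 0.125, the smallest that 4 arrays can give, and 0.125 after adjustment over the 3 differences of this kind that were computed. These 3 differences were chosen after the ratios had been seen.

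Among the targets, Nrarp and Hes1 were lower while Hey1 and Heyl did not pass. Nrarp, the ankyrin-repeat feedback inhibitor, had a log2 intensity of 12.14, 12.35, 12.32 and 12.33 in the controls and of 10.77, 11.19, 11.25 and 11.45 in the cKO. Array 1 had the lowest level of both genotypes. The Nrarp log2 ratio was -1.12 ± 0.21 (SD, n = 4; SE 0.0802, limma adjusted p = 0.00219), a 2.17-fold lower level, with a 95% confidence interval from -1.32 to -0.91. It was -1.37, -1.15, -1.07 and -0.87 on the 4 arrays, and 0.903% of the genes tested had a lower ratio.

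Hes1, a repressor that holds progenitor cells undifferentiated in many tissues, had a log2 intensity of 12.46, 12.65, 12.62 and 12.55 in the controls. In the cKO it was 11.07, 11.87, 11.75 and 11.56. The cKO level was lowest on array 1. The log2 ratio was -1.01 ± 0.27 (SD, n = 4; SE 0.0994, limma adjusted p = 0.00564), which is 2.02-fold lower, with a 95% confidence interval from -1.26 to -0.76. The ratio on array 1 was -1.40, against -0.78, -0.87 and -0.99 on arrays 2 to 4, and without array 1 the fitted ratio was -0.88.

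Hey1 and Heyl encode related repressors that are known from vessels and smooth muscle. The log2 intensity of Hey1 was 12.44, 12.40, 12.30 and 12.48 in the controls and 12.21, 12.40, 12.26 and 12.60 in the cKO. Its levels overlapped between the genotypes, and its log2 ratio was -0.04 ± 0.14 (SD, n = 4; limma adjusted p = 0.773), with a 95% confidence interval from -0.19 to 0.11. For Heyl the log2 intensity was 11.01, 11.56, 11.36 and 11.49 in the controls and 11.27, 11.23, 11.48 and 11.63 in the cKO, which also overlapped. The Heyl log2 ratio was 0.05 ± 0.26 (SD, n = 4; limma adjusted p = 0.825), with a 95% confidence interval from -0.18 to 0.28, and the male pair of array 2 gave -0.33 where the other arrays gave 0.26, 0.11 and 0.14. Both intervals leave out a change of the size fitted for Hes1.

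The Hes1 ratio lay below that of both HEY genes on each array. Hes1 minus Hey1 was -0.97 ± 0.20 (SD, n = 4), with -1.17, -0.79, -0.83 and -1.11 on arrays 1 to 4. Hes1 minus Heyl was -1.06 ± 0.49 (SD, n = 4) and was smallest on array 2, at -0.45, against -1.66, -0.99 and -1.13 on arrays 1, 3 and 4. The exact two-sided sign-flip p was 0.125 for each, before and after adjustment.

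**Figure D2:**
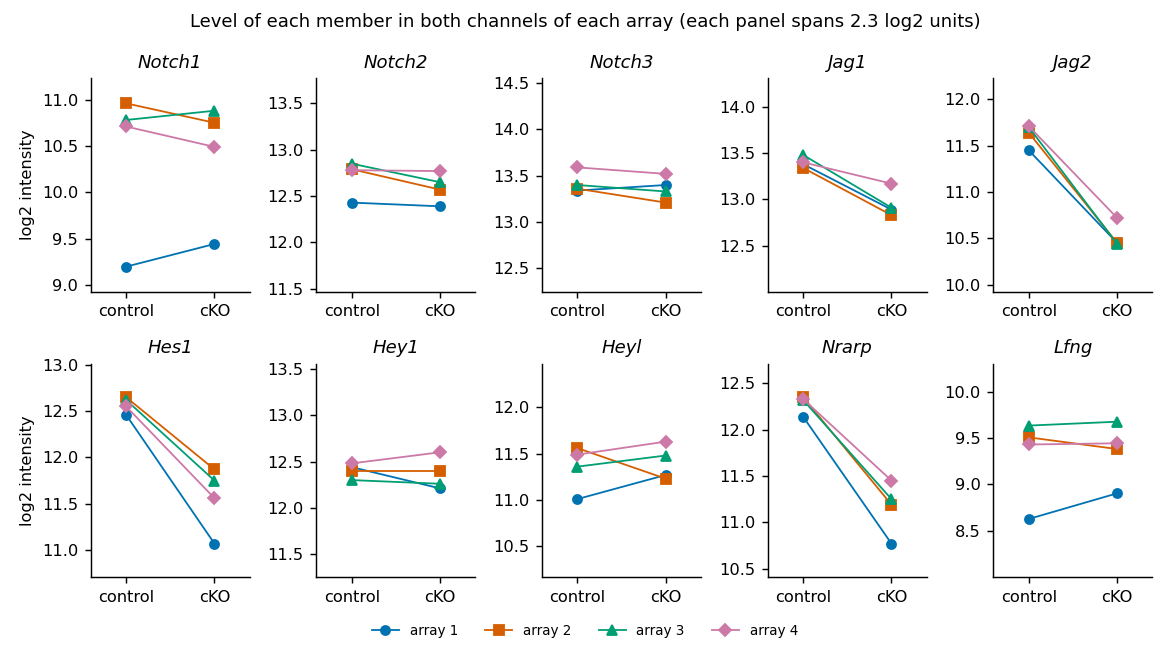
Log2 intensity (vertical axis) of each Notch gene in the control and cKO channel of each array, joined by a line for each array; every panel spans the same number of log2 units, and levels are not comparable between panels because each gene has its own probe. The lines of Jag2, Nrarp, Hes1 and Jag1 all slope down, and those of Notch2 do so less. The Notch1 line of array 1, from 9.20 to 9.44, lies below those of the other arrays.

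None of the receptors passed at its brightest probe. Notch3, the receptor of smooth muscle cells and pericytes, had a log2 intensity of 13.34, 13.36, 13.40 and 13.59 in the controls and of 13.40, 13.21, 13.33 and 13.52 in the cKO. The Notch3 levels overlapped, and the log2 ratio was -0.06 ± 0.08 (SD, n = 4; limma adjusted p = 0.604), the smallest spread of the 10 genes, with a 95% confidence interval from -0.20 to 0.08. Notch2, a broadly expressed receptor, had a log2 intensity of 12.43, 12.79, 12.85 and 12.78 in the controls and of 12.39, 12.57, 12.65 and 12.77 in the cKO. The Notch2 levels overlapped as well, and its log2 ratio was -0.12 ± 0.11 (SD, n = 4; limma adjusted p = 0.36), with a 95% confidence interval from -0.28 to 0.05. The second Notch2 probe, 2681 bases away on the mm9 genome, had a ratio of -0.02 ± 0.14 (limma adjusted p over probes 0.92).

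Notch1, a receptor of stratified epithelia and endothelium, gave different answers at its 2 probes. The brighter probe stood for the gene. Its log2 intensity was 9.20, 10.96, 10.78 and 10.71 in the controls and 9.44, 10.75, 10.88 and 10.49 in the cKO, so that array 1 was low in both genotypes and the groups overlapped. Its log2 ratio was -0.02 ± 0.23 (SD, n = 4; limma adjusted p = 0.871), with a 95% confidence interval from -0.16 to 0.12. The ratio was 0.24 and 0.10 on arrays 1 and 3, where the cKO was red, and -0.21 and -0.22 on arrays 2 and 4, where it was green, and the fitted dye effect was 0.19. The dimmer probe lies 4810 bases away on the mm9 genome and is assigned to the same transcript (NM_008714 per the files). It gave -0.23, -0.60, -0.46 and -0.32 on arrays 1 to 4. Its mean was -0.40 ± 0.16 (SD, n = 4; limma adjusted p over probes = 0.0372), lower in the cKO on each array. Averaged over both probes, the Notch1 ratio was -0.21 with a limma adjusted p of 0.104. What sets the probes apart was not tested.

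Lfng, the fringe glycosyltransferase, had a log2 intensity of 8.63, 9.51, 9.63 and 9.43 in the controls and of 8.90, 9.38, 9.68 and 9.44 in the cKO. Array 1 was low in both genotypes, and the groups overlapped. The log2 ratio was 0.05 ± 0.17 (SD, n = 4; limma adjusted p = 0.708), with a 95% confidence interval from -0.11 to 0.22 and values of 0.28, -0.13, 0.04 and 0.01 on the 4 arrays.

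The male pair could be set against a female pair of the same dye orientation (array 2 minus array 4), with 1 array on each side, so that sex cannot be told apart from the array. Only the size of this difference is therefore given. The fitted differences were -0.47 for Heyl, -0.28 for Jag1 and Nrarp, -0.21 for Jag2 and Notch2 and 0.21 for Hes1. They were -0.14 for Lfng, -0.12 for Hey1, -0.07 for Notch3 and 0.01 for Notch1.

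The rest of the pathway was read from a list of 45 further genes, of which 44 were tested. Of these, 0 were higher, 2 were lower and 42 did not pass, beside 2.92% higher and 5.62% lower over all genes, and their median log2 ratio was 0.00. At an unadjusted p under 0.05 there were 13 of the 44, beside 23.7% of all genes. The genes that passed were Dlk2 and Adam10. Dlk2, a membrane protein related to the Delta-like ligands, stood at -0.42 ± 0.11 on the log2 scale (n = 4; limma adjusted p = 0.0134), with -0.29, -0.55, -0.40 and -0.43 on arrays 1 to 4. Its adjusted p was 0.0518, 0.0549, 0.0647 and 0.0453 with array 1, 2, 3 or 4 left out and 0.056 with the authors' deposited value table. Adam10, the protease that makes the first cut in a ligand-bound receptor, stood at -0.31 ± 0.14 (n = 4; limma adjusted p = 0.0275), with -0.42, -0.14, -0.42 and -0.24. It lost its call with any array left out, with an adjusted p from 0.0725 to 0.127, and had 0.0544 with the authors' deposited value table.

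The other parts of the pathway were represented by the brightest gene of each role. The Delta-like ligand with the highest signal was Dll1, at -0.37 ± 0.23 (SD, n = 4; limma adjusted p = 0.0769) and below 0 on each array; it passed at 0.022 when the channels were fitted separately with the array as a block. The receptor Notch4 had a ratio of 0.22 ± 0.20 (adjusted p = 0.151, limma). Pofut1, which adds the O-fucose that fringe enzymes extend, had one of 0.04 ± 0.10, and the brightest further HES gene, Hes6, one of 0.09 ± 0.10. Among the 7 genes of the nuclear complex the brightest was Snw1, at -0.01 ± 0.14. For Psenen, a gamma-secretase subunit, the ratio was 0.02 ± 0.16, and for Neurl1b, a ubiquitin ligase that promotes ligand uptake, -0.02 ± 0.13. Over the 54 tested genes of the pathway, members included, 6 were lower and 0 higher, beside 5.62% lower and 2.92% higher over all genes. The 6 were 4 of the 10 members, which were chosen with earlier results of these data known, and 2 of the 44 others. The lowest ratios after the 3 members near -1 were those of Jag1 and Dlk2. The DNA-binding partner Rbpj, named after its value was seen, had a ratio of 0.27 ± 0.19 (limma adjusted p = 0.062), which passed at 0.00923 in the same block fit.

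**Figure D3:**
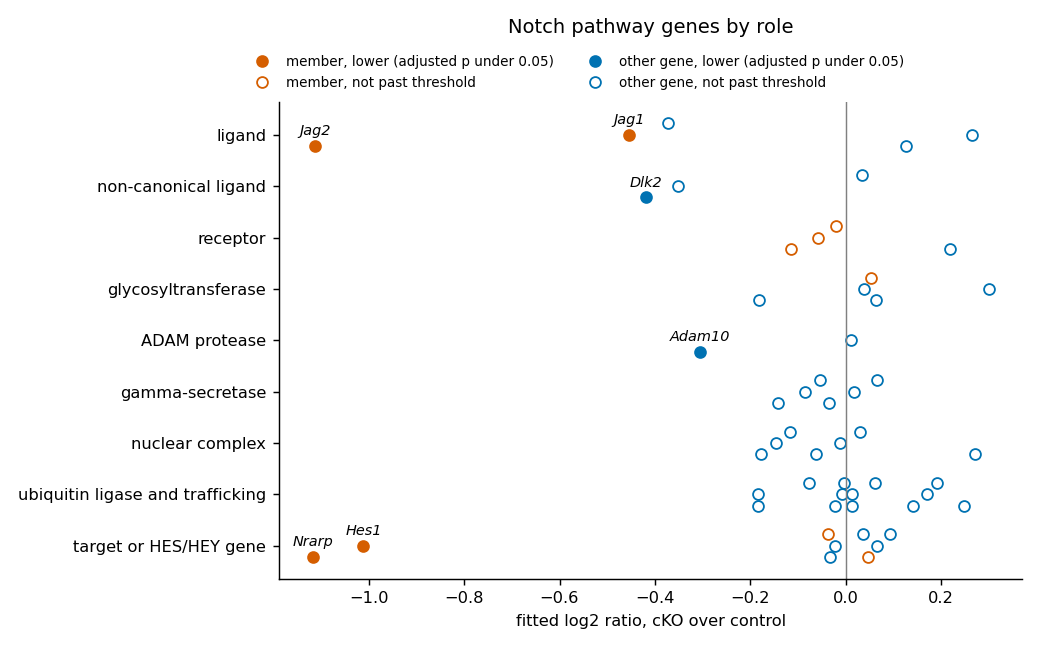
Fitted log2 ratio of cKO over control (horizontal axis) of the tested Notch pathway genes by role (vertical axis), with filled symbols for an adjusted p under 0.05 and orange for the 10 members; the vertical offset within a row only separates points. Most genes lie within 0.3 log2 units of 0, and Jag2, Nrarp and Hes1 stand near -1.

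Marker genes of basal urothelium and of epithelia in general differed on the same arrays, and their part in the results was not tested. The error of a list's median below is the SD of its 4 array medians. Over all genes tested, 5.62% were lower, 2.92% were higher and 23.7% had an unadjusted p under 0.05 in limma. The basal urothelium list includes Trp63, the gene that the cKO targets, so the fall of that gene was set by the design. All 9 genes of the list were lower, with a median log2 ratio of -2.21. Their summed intensity was 80300 to 93200 in the controls and 14500 to 17000 in the cKO. The basal keratin genes Krt5 and Krt15 were at -2.86 ± 0.10 and -2.55 ± 0.13 (SD, n = 4; limma adjusted p = 0.000156 for both). Of 11 genes shared by epithelia, 5 were lower and 0 higher (7 at an unadjusted p under 0.05 in limma), with a median of -0.46 ± 0.34. Of 7 genes of superficial urothelium 0 passed (4 at an unadjusted p under 0.05), with a median of -0.45 ± 0.31. The shared epithelial median was -0.86, -0.06, -0.44 and -0.62 on arrays 1 to 4. On arrays 1 and 2, which had the lowest and the highest of these medians, Hes1 was at -1.40 and -0.78, Nrarp at -1.37 and -1.15, Jag1 at -0.50 and -0.51 and Jag2 at -0.999 and -1.20. The summed intensity of the shared epithelial genes was 286000 to 301000 in the controls and 175000 to 288000 in the cKO.

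Outside the epithelium, no gene of the smooth muscle list (10 tested, median 0.15 ± 0.11), the endothelium list (10 tested, median 0.19 ± 0.11) or the ureter mesenchyme list (9 tested, median 0.17 ± 0.15) passed in limma. At an unadjusted p under 0.05 in limma these lists had 4, 6 and 4 genes, beside 23.7% of all genes. The 6 pericyte genes, which include Notch3, had a median of 0.10, and Rgs5, named after its value was seen, was lower, at -0.90 ± 0.23 (limma adjusted p = 0.007). The 7 leukocyte genes tested and the 5 erythroid genes had none past the threshold, and 0 and 1 at an unadjusted p under 0.05, with medians of -0.06 and 0.28. Hepatocyte genes went the other way, with 4 of 8 higher, beside 2.92% of all genes, and a median of 1.62 ± 0.95. All 8 had an unadjusted p under 0.05 in limma, beside 23.7% of all genes. Their median was 2.28, 2.55, 1.31 and 0.47 on arrays 1 to 4, and the summed intensity was 12200 to 43400 in the controls and 28300 to 221000 in the cKO. On arrays 2 and 4, which had the highest and the lowest of these medians, Nrarp was at -1.15 and -0.87, Jag1 at -0.51 and -0.23, Jag2 at -1.20 and -0.99 and Hes1 at -0.78 and -0.99. The part of the hepatocyte signal in these values was not tested.

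**Figure D4:**
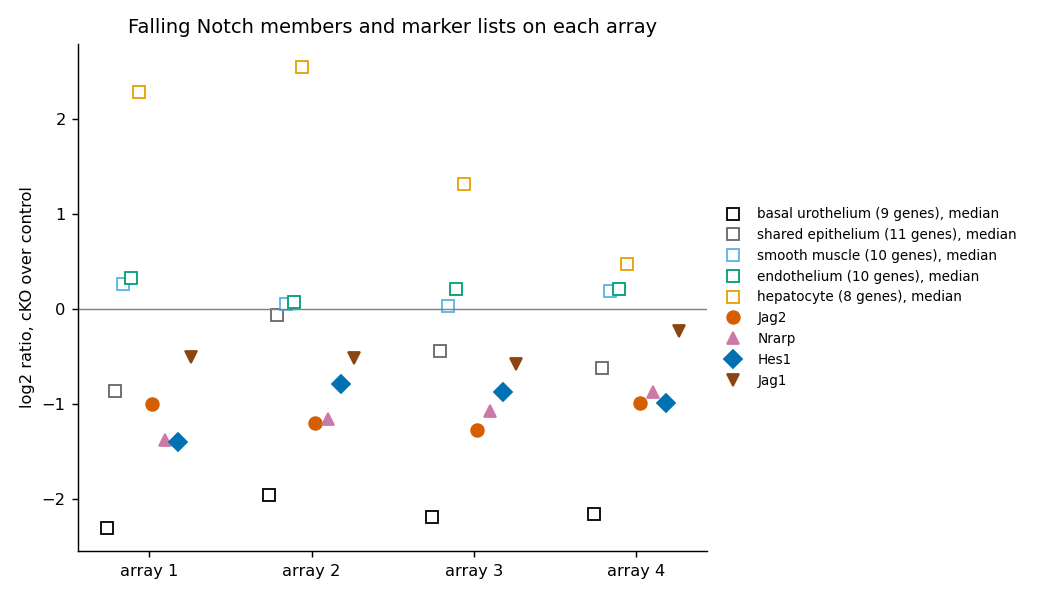
Log2 ratio of cKO over control (vertical axis) on each array (horizontal axis) for the 4 Notch genes that were lower (filled symbols). Open squares show the median over 5 lists of marker genes, and the basal urothelium list includes Trp63. The Notch genes lie between the basal urothelium medians, from -2.30 to -1.96, and the smooth muscle and endothelium medians, which are above 0, on each array.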

How the data were processed

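The 4 arrays were read from the scanner files. The authors obtained the linear spot intensities with version 10.7.3.1 of Agilent Feature Extraction (submitters' processing notes). The authors' deposited table gives log2 ratios with a median of 0 on each array. Its direction, cKO over control, and its scale were found by comparison with the scanner values (slope 0.998 to 1.00); how its exact zeros arose is not stated. Per the labels' protocols, 200 ng of total RNA went through 1 round of amplification. Here, mean signals were corrected with normexp (offset 50), loess-normalized and turned to cKO over control, outlier spots were left out, and the 4 spots of a probe were averaged. Names were updated through a RefSeq gene table. A gene was tested if a probe was well above background on all arrays in either genotype, and its brightest probe stood for it. Ratios were fitted with limma 3.58.1 in R 4.3.3 with a dye term (2 residual degrees of freedom) and Benjamini-Hochberg adjustment. The fit was also run on simulated ratios of 18170 genes, with changes of 0.5 and of 1 log2 unit in 100 genes each. It called 97% and 100% of these, and it also called 24 genes that had no change. The simulated noise was normal, independent between genes and of the spread that limma had fitted. Shifts shared by many genes were not simulated, so these shares need not hold for the real arrays. All arrays lay on 1 slide with 1 scan. SDs are over arrays. The alternatives were other background corrections, the deposited table, no dye term, no filter, all probes, scaling, separate channels with the array as a random block or without it, and each array left out. Named genes were the 10 members, Trp63, pathway genes past the threshold (or the brightest of a role with none), the 2 brightest markers of a list and basal markers past the threshold, of which not all are named; Rgs5, Rbpj, Dner and other genes called in an alternative were named after their values were seen. The members and lists were chosen with earlier results of these data known.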

Additional observations from a re-analysis of the deposited data

Results flagged for a closer look

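Among 33 sets of 4 values examined for a sample far from the others, 4 were picked out, and chance picks out about 1 set in 20. The Notch1 control level on array 1 was 9.20 (log2 intensity), against 10.71 to 10.96 on the other arrays. The Notch2 control level on array 1 was 12.43, against 12.78 to 12.85, and the Nrarp control level on array 1 was 12.14, against 12.32 to 12.35. The Jag2 cKO level on array 4 was 10.72, against 10.44 to 10.45. Ratios within an array, on which the tests rest, were not among the values picked out.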

How the results depend on the processing

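Jag2, Hes1 and Nrarp kept their direction and their call in all 13 alternatives; with an array left out they ranged from -1.18 to -1.05, -1.14 to -0.88 and -1.19 to -1.04. Jag1 kept its direction, at -0.52 to -0.39 with an array left out and -0.45 with the deposited table, and lost its call there and without array 1, 2 or 3, so that 3 of the 10 genes were lower in these settings. The sign turned for Notch1, Hey1, Heyl and Lfng, none of which passed in any setting. Notch1 was at 0.0144 with Agilent's processed signals, 0.0172 with the deposited table and -0.057 to 0.0149 with an array left out. With an array left out, Hey1 ranged from -0.083 to 0.0064, Heyl from -0.072 to 0.16 and Lfng from -0.0069 to 0.11. The dimmer Notch1 probe was not fitted alone in these settings. Over all genes, 253 were higher and 583 lower with the deposited table, 277 to 359 and 554 to 767 with an array left out, 897 higher when separate channels were fitted with a random array block (intra-array correlation 0.634), and 124 and 440 without the block. Of the other pathway genes, 0 were lower with the deposited table, 0 to 1 with an array left out (Dner at -0.55 without array 1, adjusted p = 0.0339, and Dlk2 without array 4), 6 with the block (Dlk2, Adam10, Dll1, Dtx2, Dtx3l and Poglut1, with Rbpj as 1 higher) and 1 (Dlk2) without it; the cause was not tested. With 3 arrays 1 residual degree of freedom remains beside the prior. The number of arrays limits the precision.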
